A study of Mus musculus with 2 samples.

Results

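Gap junction and cadherin genes encode the proteins through which ovarian cells touch and communicate. The 8 genes described here, Gja1, Gja4, Gjc1, Cdh1, Cdh2, Cdh3, Cdh5 and Cdh11, were chosen by name as 8 of the 31057 genes in the expression matrices. The choice was made with earlier results of these data known. These genes were followed across 5 cell types of the newborn ovary by single-cell RNA sequencing of 2 libraries. Each library, the replicate of this study, was made from 6 ovaries of 3 pups of 1 CD1 female, an outbred mouse stock, at postnatal day 2 and without treatment. There was no second condition, so each comparison is between cell types, and the whole ovary was dissociated without sorting.

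Connexins assemble into hemichannels, and hemichannels of neighbouring cells dock to form the pores of a gap junction, through which ions, metabolites and cyclic nucleotides pass. In the follicle these channels join granulosa cells to each other and to the oocyte. Classical cadherins are calcium-dependent adhesion proteins that mostly bind the same cadherin on the neighbouring cell and hold on to the actin cytoskeleton through catenins. Around the day of birth and shortly after it, germ cell nests of the mouse ovary break down and single oocytes become enclosed by granulosa cells as primordial follicles.

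Once poor cells and doublets had been removed, clustering was done on 3642 cells from replicate 1 and 4371 from replicate 2, leaving out the 8 genes and their relatives. Clusters were then named from marker genes. Germ-like cells numbered 211 and 450 in replicates 1 and 2, granulosa-like cells 1663 and 619, mesothelial-like cells of the ovarian surface 187 and 294, and interstitial-like cells 1397 and 2498. Endothelial-like cells were fewest, at 60 and 33. Perivascular-like cells (51 and 52) and immune-like cells (33 and 64) were kept apart. Germ-like cells were by far the richest in RNA, with median totals of 79489 and 61729 unique molecular identifiers (UMIs, each standing for 1 captured RNA molecule) per cell, whereas the medians of the other 4 main types lay between 5004.5 and 13607. A share of cells with a UMI is therefore not comparable between types at full depth. Such shares are also given after each cell was thinned to 2000 UMIs. The germ-like class leaves out an unnamed cluster of 28 and 225 cells in which all 6 germ markers were detected. Its median was 2463 UMIs per cell over both libraries, so the germ-like counts, depths and shares given here do not cover germ cells with little RNA.

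The libraries stood apart in 2 ways. Granulosa-like cells made up 45.7% of the clustered cells of replicate 1 and 14.2% of those of replicate 2. The germ-like class was made of 2 clusters, of which 1, led by Bfsp1, held 200 germ-like cells of replicate 1 and 11 of replicate 2, and the other, led by S100z, held 11 and 439. Only 21 cell barcodes occurred in both libraries. All 6 fixed markers of its own type were detected in each of the 5 main types in both libraries. These markers had also named the clusters, and the gate genes used next are among them. Neither result is therefore independent of the naming. A stricter check of single cells, with at least 2 UMIs of the gate genes of the own type and more of them than of any other, was passed by 99.5% and 99.1% of germ-like cells (Ddx4, Dazl, Ooep) and by 98.8% and 92.2% of granulosa-like cells (Foxl2, Fst, Wnt6). It was passed by 99.6% of interstitial-like cells of replicate 1 and all of those of replicate 2 (Col1a2, Dcn), by all endothelial-like cells of replicate 1 and 66.7% of those of replicate 2 (Pecam1, Kdr), and by 37.4% and 42.5% of mesothelial-like cells (Upk3b). Mesothelial-like cells also carried granulosa markers at 43.7% and 49.95% of their summed level in granulosa-like cells, mainly Wnt6, Irx3 and Amhr2, whereas Foxl2 stood at 19.0 and 25.2 CPM (UMIs of a gene per 1000000 UMIs of that cell type and library).

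In the comparison of each cell type with the sum of all the remaining named cells, every one of the 8 genes was enriched in 1 type. The share of all genes enriched in some type was not counted, so no weight is put on this number. With equal weight for each other type, Cdh3 and other members were called in more than 1 type. The pattern of 1 type per gene thus holds for the main comparison only. A gene was called enriched when the log2 fold change was over 1 and the adjusted p was under 0.05. The germ-like set was Gja4 and Cdh1 (2 of 8, where 28.7% of all genes tested were called), and the granulosa-like set was Gja1 and Cdh2 (2 of 8, against 16.8% of all genes). Cdh3 alone was called in mesothelial-like cells (1 of 8, against 10.8%), Cdh11 and Gjc1 in interstitial-like cells (2 of 8, against 17.2%), and Cdh5 alone in endothelial-like cells (1 of 8, against 9.62%). With 8 genes, these counts lie near the backgrounds. The set's median log2 fold change was below 0 in all 5 types, from -2.86 in germ-like to -0.33 in mesothelial-like cells, where the medians over all genes ran from -0.37 to -0.05. Each gene was called here in only 1 type, so most of the 8 were called elsewhere in any given type. What sets the medians was not tested, and no conclusion about junction genes is drawn from them.

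**Figure D1:**
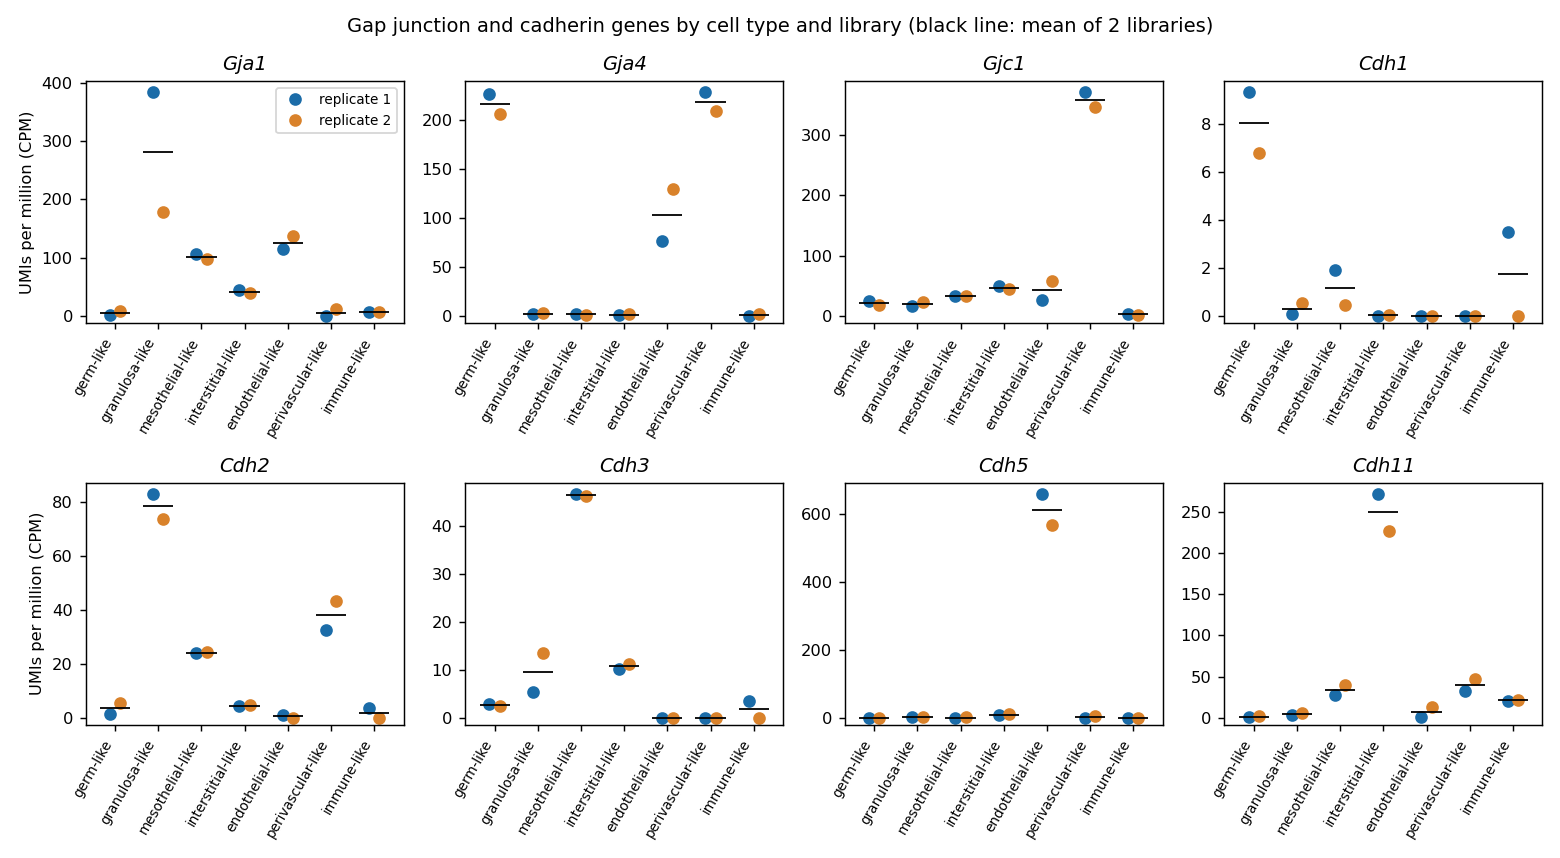
CPM of the 8 genes in 7 cell types, with 1 point per library (blue, replicate 1; orange, replicate 2), a black line at the mean of 2 libraries and a linear axis of its own for each gene. Each gene stands highest in 1 or 2 types, and the 2 libraries differ most for Gja1 in granulosa-like cells, at 384 and 178 CPM.

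**Figure D2:**
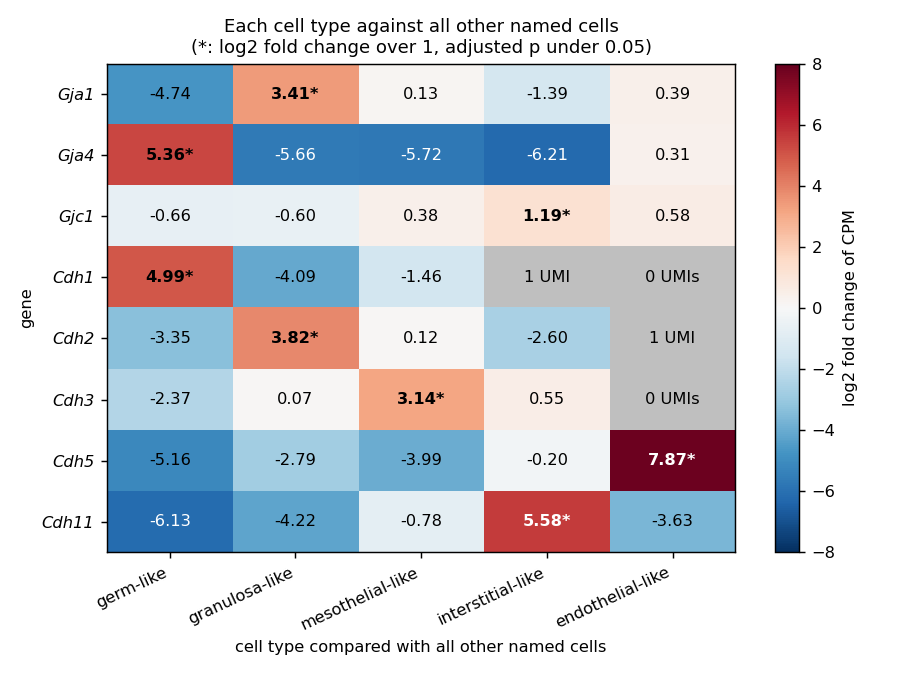
Log2 fold change of each gene (rows) in each of 5 cell types against all other named cells (columns), with calls marked by a star and in bold. Grey fields hold 3 UMIs or fewer over both libraries and show that number in place of a fold. Each row has exactly 1 call.

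Of the connexins, Gja4 was enriched in germ-like and Gja1 in granulosa-like cells. Gja4 encodes the connexin of the oocyte side of the oocyte-granulosa channel, and female mice without it are infertile. In germ-like cells it stood at 227 CPM in replicate 1 and 207 CPM in replicate 2 (mean 217 ± 14.3, SD, n = 2). In granulosa-like cells it stood at 1.57 and 3.27 CPM, in mesothelial-like cells at 1.58 and 1.55 CPM and in interstitial-like cells at 0.781 and 1.83 CPM. Both germ-like libraries lay above every library of those 3 types, and the log2 fold change against all other named cells was 5.36 ± 0.18 (SE; adjusted p = 0.000267).

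Nearly every germ-like cell carried a UMI of Gja4, namely 98.1% of cells in replicate 1 (exact binomial 95% confidence interval 95.2 to 99.5%) and 96.0% in replicate 2 (93.8 to 97.6%). Intervals of this kind cover counting error only. After thinning the shares were 38.9% and 35.9%, against 0.362% and 1.16% in granulosa-like cells. The 2 germ-like clusters gave like levels of Gja4: 228 CPM in the 200 cells of replicate 1 in the Bfsp1 cluster, and 206 CPM in the 439 cells of replicate 2 in the S100z cluster. The small remainders of 11 cells each gave 247 CPM (78 UMIs, Bfsp1 cluster, replicate 2) and 183 CPM (69 UMIs, S100z cluster, replicate 1).

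Gja4 was not restricted to germ-like cells. Endothelial-like cells carried it at 76.1 and 130 CPM, in 26.7% and 48.5% of cells (after thinning, lower in both and 21.2% in replicate 2). Perivascular-like cells carried it at 229 and 209 CPM, in 52.9% and 55.8% of cells (29.4% and 26.5% after thinning). In CPM, the perivascular level was 101% of the germ-like level in both libraries. The summed germ markers in perivascular-like cells stood at 0.394% and 1.35% of their germ-like sum. Counted per cell, germ-like cells carried 17.7 and 12.1 UMIs of Gja4 and perivascular-like cells 1.10 and 1.02. In endothelial-like cells Gja4 reached 33.5% and 62.7% of its germ-like level, where the germ markers stood at 0.285% and 0.703%. The 6 perivascular markers, none at 0 in endothelial-like cells, summed there to 46.9 and 420 CPM, or 1.00% and 11.9% of their perivascular-like sum, and so rose with Gja4 between the libraries. Their part in the endothelial-like value was not tested. The germ-like level exceeded the endothelial-like level by a log2 fold change of 0.99 ± 0.29 (adjusted p = 0.0104), just under the fold needed for a call, and it was called under 8 of 11 alternatives with a test (adjusted p 5.79e-07 to 0.465). The endothelial-like level in turn exceeded that of granulosa-like cells by 5.57 ± 0.37 on the log2 scale (adjusted p = 2.56e-07).

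Gja1 encodes the connexin that couples granulosa cells to each other, and it was enriched in granulosa-like cells by a log2 fold change of 3.41 ± 0.37 (adjusted p = 0.000809). Its level there was 384 CPM in replicate 1 and 178 CPM in replicate 2 (mean 281 ± 146, SD, n = 2). Endothelial-like cells followed with 115 and 137 CPM, mesothelial-like cells with 106 and 98.1 CPM, interstitial-like cells with 44.0 and 38.7 CPM, and germ-like cells stood last of the 5 with 2.31 and 9.14 CPM. No library of granulosa-like cells overlapped with another type, but the spread between the 2 granulosa-like libraries was the widest of any gene in its leading type. The granulosa-like class also had a different make-up in the libraries, which is given with the clusters.

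Not every step of this order passed the test. The granulosa-like level exceeded the mesothelial-like level by 1.37 ± 0.44 on the log2 scale (adjusted p = 0.0431), a call lost under 3 of 11 alternatives with a test, such as DESeq2 (adjusted p = 0.0983; range 2.59e-09 to 0.515), and whose fold fell to 0.80 without replicate 1. Between granulosa-like and endothelial-like cells the difference was 1.09 ± 0.48 (adjusted p = 0.114), and between mesothelial-like and endothelial-like cells it was -0.28 ± 0.49 (adjusted p = 0.746). Mesothelial-like cells exceeded interstitial-like cells by 1.35 ± 0.45 (adjusted p = 0.0340; lost under 2 of 11 alternatives), and interstitial-like cells exceeded germ-like cells by 2.90 ± 0.48 on the same scale (adjusted p = 0.000101). Gja1 UMIs were carried by 86.5% and 59.9% of granulosa-like cells (exact 95% intervals 84.8 to 88.1% and 56.0 to 63.8%), and by 46.8% and 27.1% after thinning.

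Levels within the granulosa-like class were uneven. The 5 granulosa-like clusters, formed without Gja1, ranged 6.29-fold in replicate 1 and 6.82-fold in replicate 2 from the highest to the lowest mean. The clusters led by Hsd3b1, Amh and Inha, genes of hormone production in granulosa cells of growing follicles, held the most Gja1: 505 and 403 CPM in 1 and 492 and 410 CPM in the other. The cluster led by Cxcl10 and Serpina1b, which also holds Egr2 and Ddit3 among its leading genes, stood at 409 and 236 CPM. The cluster led by Colec11 stood at 222 and 114 CPM. The cluster led by Ly6d and Pcp4 was lowest with 80.2 and 59.1 CPM. The make-up of the class differed between the libraries: the Cxcl10 cluster made up 41.7% of it in replicate 1 and 12.6% in replicate 2, and the Ly6d cluster 7.28% and 38.4%. Replicate 1 lay above replicate 2 in 5 of 5 clusters, by 1.20- to 1.96-fold, against 2.16-fold for the whole class. These levels by cluster are a description, and no test was run on them.

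**Figure D3:**
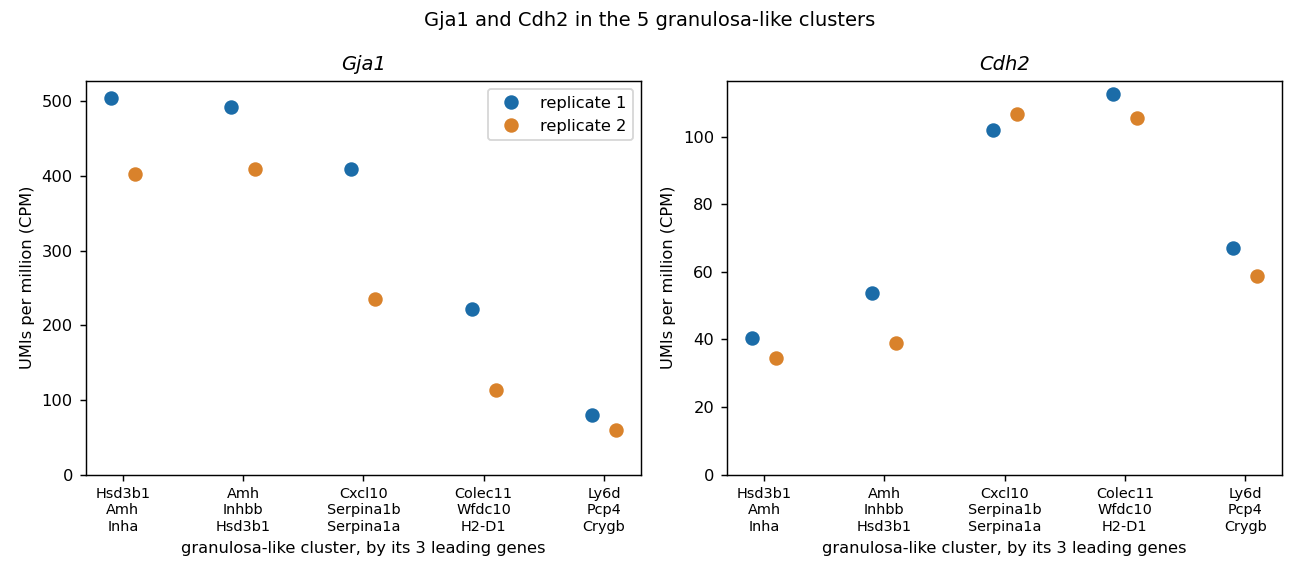
CPM of Gja1 (left) and Cdh2 (right) in the 5 granulosa-like clusters, each named by its 3 leading genes and ordered by Gja1, with 1 point per library and linear axes from 0. Gja1 is highest in the 2 Amh clusters (403 to 505 CPM), where Cdh2 is lowest (34.6 to 53.8 CPM).

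Cdh2, the neural cadherin, was enriched in granulosa-like cells. It stood there at 83.0 and 73.7 CPM, against 24.01 and 24.3 CPM in mesothelial-like, 4.20 and 4.80 CPM in interstitial-like and 1.46 and 5.54 CPM in germ-like cells, while endothelial-like cells held 1 UMI in replicate 1 and 0 in replicate 2. Perivascular-like cells, for which no test was fixed, carried 32.6 and 43.4 CPM from 8 and 11 UMIs. Against all other named cells the log2 fold change was 3.82 ± 0.23 (adjusted p = 0.000125). The granulosa-like level exceeded the mesothelial-like level by 1.60 ± 0.38 (adjusted p = 0.00793), and that in turn the interstitial-like level by 2.46 ± 0.42 (adjusted p = 0.000541). Interstitial-like and germ-like cells differed by 0.40 ± 0.42 (adjusted p = 0.401), less than the spread between libraries.

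Cdh2 followed another order than Gja1 across the granulosa-like clusters, again as a description. It was highest in the Colec11 cluster (113 and 106 CPM) and the Cxcl10 cluster (102 and 107 CPM), intermediate in the Ly6d cluster (67.0 and 58.7 CPM), and lowest in both Amh clusters, where Gja1 was highest (53.8 and 38.9 CPM, and 40.4 and 34.6 CPM). From the highest to the lowest cluster the ratio was 2.79 in replicate 1 and 3.05 in replicate 2. Over these clusters the ratios of replicate 1 to replicate 2 lay between 0.955 and 1.38 for Cdh2. For Gja1 they lay between 1.20 and 1.96, so the 2 ranges overlapped. Of the granulosa-like cells, 48.3% and 32.8% carried UMIs of both genes, which fell to 6.70% and 3.33% after thinning. Each gene was common by itself at full depth, Gja1 in 86.5% and 59.9% of these cells and Cdh2 in 54.8% and 48.6%. Whether the 2 genes met in more cells than these shares give was not tested.

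Both granulosa genes were also read in germ-like cells, at a low level that differed between libraries. Gja1 in germ-like cells stood at 0.603% of its granulosa-like level in replicate 1 and at 5.14% in replicate 2. The summed 6 granulosa markers, none of them at 0 in germ-like cells, stood at 0.713% and 5.51%, or 18.9 and 130 CPM against 2654 and 2358 CPM in granulosa-like cells. Gja1 thus followed the marker sum in both libraries, and Cdh2, at 1.76% and 7.51%, lay somewhat above it. The part of granulosa RNA in these germ-like values was not tested. At 2000 UMIs per cell, 0.0% and 1.79% of germ-like cells carried Gja1.

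**Figure D4:**
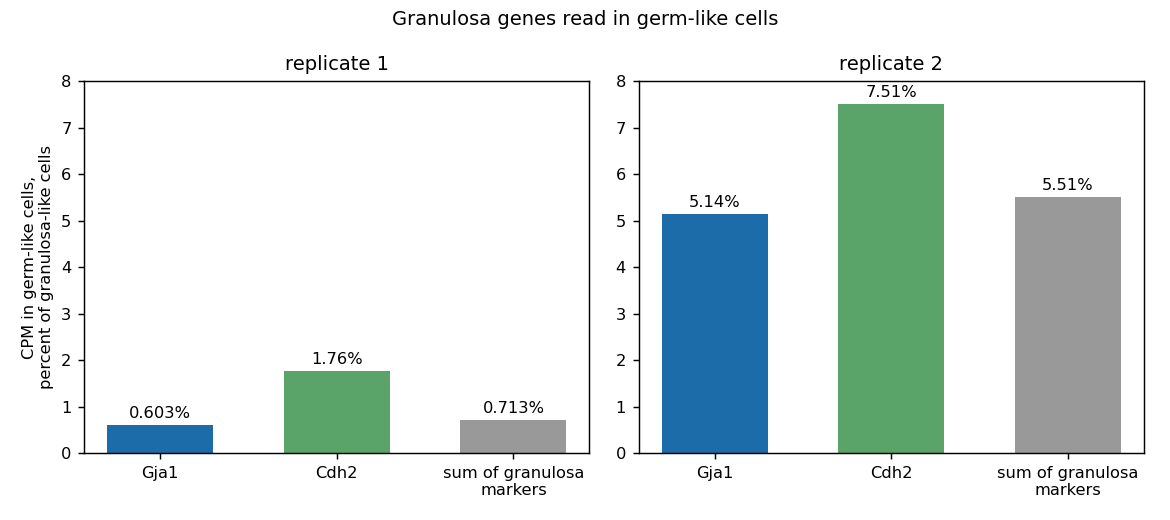
CPM in germ-like cells as a percent of CPM in granulosa-like cells of the same library, for Gja1, Cdh2 and the sum of 6 granulosa markers, as bars from 0. Gja1 (0.603% and 5.14%) lies close to the marker sum (0.713% and 5.51%) in both replicates.

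Promoter sequence was given in RefSeq tables for 2 of the 8 genes, Gja1 and Gja4, and is shown because these connexins led in the 2 cell types of the follicle. Each window runs from 250 bases before to 50 bases after the start annotated in RefSeq (GRCm38.p6). For Gja1 this start lies upstream of the GENCODE gene start, chr10:56377330, and the distances given below refer to the RefSeq start. Capitals mark the E-box letters CANNTG, which read alike on both strands, and the AP-1 letters TGANTCA.
Gja1, plus strand, chr10:56377050-56377349: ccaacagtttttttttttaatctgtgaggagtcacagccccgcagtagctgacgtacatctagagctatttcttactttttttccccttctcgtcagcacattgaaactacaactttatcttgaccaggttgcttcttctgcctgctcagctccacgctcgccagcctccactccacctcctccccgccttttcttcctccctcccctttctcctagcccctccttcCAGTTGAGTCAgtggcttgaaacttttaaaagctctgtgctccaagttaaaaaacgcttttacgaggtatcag
Gja4, minus strand, chr4:127313990-127314289: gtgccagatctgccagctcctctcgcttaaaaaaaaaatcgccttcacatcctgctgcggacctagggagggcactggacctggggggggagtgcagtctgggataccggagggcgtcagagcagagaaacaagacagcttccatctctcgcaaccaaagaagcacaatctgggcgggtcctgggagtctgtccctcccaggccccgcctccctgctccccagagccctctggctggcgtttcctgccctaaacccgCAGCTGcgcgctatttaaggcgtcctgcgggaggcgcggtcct
Each window held 1 E-box match, beginning 23 bases before the start in Gja1 and 7 bases after it in Gja4. The Gja1 window also held 1 AP-1 match, which shares 2 bases with the E-box. Of 32851 promoter windows in the table, 72.3% held the E-box letters and 7.81% the AP-1 letters, so an E-box match is common, and a match is a description only.

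Gjc1 encodes a connexin known from vascular smooth muscle and the early heart, and its levels differed least among the 5 main types. They were 49.0 and 45.3 CPM in interstitial-like, 27.1 and 58.5 CPM in endothelial-like, 32.5 and 32.9 CPM in mesothelial-like, 25.1 and 19.1 CPM in germ-like and 16.9 and 24.1 CPM in granulosa-like cells. Counted per cell, the RNA-rich germ-like cells carried 1.95 and 1.12 UMIs and interstitial-like cells 0.359 and 0.287. In endothelial-like cells, where perivascular markers stood at 1.00% and 11.9% of their perivascular-like sum, Gjc1 was higher in the same library as these markers, and their part was not tested. The ranges of neighbours in this order overlapped except between mesothelial-like and germ-like cells. Interstitial-like cells were called enriched, with a log2 fold change of 1.19 ± 0.18 (adjusted p = 0.00115), but the call was lost under 4 alternatives: library size scaling (log2 fold change 0.98), equal weight for each other type (0.71), thinning (0.67, adjusted p = 0.0731) and a test against a 2-fold change (adjusted p = 0.150). The adjusted p ranged from 8.31e-06 to 0.150 over the alternatives that gave one.

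The leading site of Gjc1 was a type outside the 5. Perivascular-like cells, which share markers with pericytes of small vessels, carried it at 371 and 347 CPM, in 76.5% and 73.1% of cells (49.0% and 51.0% after thinning), which was 758% and 765% of the interstitial-like level of the same library. Interstitial markers in those cells stood at 7.56% and 16.2% of their interstitial-like sum. No test was fixed for this type. Within the interstitial-like class, the cluster led by the proliferation genes Pclaf and Top2a had the highest level in both libraries, 73.3 and 77.1 CPM.

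Of 17 other connexins, 5 could be tested in germ-like cells, where Gjb1 (48 UMIs in both libraries together, against 2 in all other named cells) and Gjb2 (log2 fold change 4.4, 136 UMIs) were enriched, 2 of 5 against 28.7% of all genes. Gjb5 (log2 fold change 4.64, 46 UMIs), known from epithelia, was enriched in mesothelial-like cells. Of the pannexins, which form channels in single membranes, Panx2 had 42 UMIs in germ-like cells and 0 in all other named cells.

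Cdh1, the epithelial cadherin, was a gene of germ-like cells at a low level. It stood there at 9.32 and 6.79 CPM (153 and 179 UMIs; mean 8.05 ± 1.79, SD, n = 2), followed by mesothelial-like cells with 1.90 and 0.442 CPM (6 and 2 UMIs) and granulosa-like cells with 0.101 and 0.523 CPM (2 and 4 UMIs). Interstitial-like cells held 0 and 1 UMI, and endothelial-like cells none of 1352487 UMIs, which allows up to 2.22 CPM. Against all other named cells the log2 fold change was 4.99 ± 0.36 (adjusted p = 0.00058), and against endothelial-like cells the level was at least 3.63-fold higher, with the limit taken from 3 UMIs over both libraries.

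The Cdh1 UMIs of germ-like cells were spread thinly. Of the germ-like cells, 46.4% and 30.2% carried a UMI (exact 95% intervals 39.6 to 53.4% and 26.0 to 34.7%), but at 2000 UMIs per cell the shares were 0.948% and 1.12% and too few UMIs remained for a test. The highest full-depth share among the 4 somatic types was 2.67%, in mesothelial-like cells of replicate 1, whose median depth of 12235 UMIs was lower. Of the 98 germ-like cells of replicate 1 with Cdh1, 98 also carried Gja4, as did 135 of 136 in replicate 2. That overlap lies near the share of all germ-like cells with Gja4, 98.1% and 96.0%. After thinning, 0 and 2 germ-like cells carried both genes. In granulosa-like cells Cdh1 stood at 1.09% and 7.70% of its germ-like level, from only 2 and 4 UMIs. Germ markers there stood at 0.514% and 0.924%.

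Cdh3, the placental cadherin, was enriched in mesothelial-like cells but not restricted to them. Mesothelial-like cells carried 46.7 and 46.4 CPM, the smallest spread between libraries of any of the 8 genes in its leading type. The next types were interstitial-like cells with 10.2 and 11.2 CPM, granulosa-like cells with 5.46 and 13.6 CPM and germ-like cells with 2.80 and 2.43 CPM. Endothelial-like cells held 0 UMIs, so the mesothelial-like level was at least 21.0-fold higher. The log2 fold change against all other named cells was 3.14 ± 0.20 (adjusted p = 7.87e-05), and against interstitial-like cells it was 2.16 ± 0.35 (adjusted p = 0.000621). Interstitial-like and granulosa-like cells differed by 0.30 ± 0.36 (adjusted p = 0.553).

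A UMI of Cdh3 was found in 46.0% and 41.5% of mesothelial-like cells (exact 95% intervals 38.7 to 53.4% and 35.8 to 47.4%), and in 5.35% and 10.5% after thinning. In interstitial-like cells Cdh3 stood at 21.9% and 24.2% of its mesothelial-like level, where the summed mesothelial markers stood at 0.148% and 0.245%, so its relative level was far above that of the markers. With equal weight for each other type, Cdh3 was also called in interstitial-like and in granulosa-like cells.

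Cdh3 and Cdh1 are neighbours in the genome. In GRCm38, Cdh3 lies on the plus strand at chr8:106510891-106557297 and Cdh1 on the same strand at chr8:106603351-106670246, with 46053 bases between them. Cdh5 (chr8:104101625-104144511, plus strand) and Cdh11 (chr8:102632095-102785642, minus strand) lie on the same chromosome. The 4 genes of this chromosome had 4 different leading types, namely mesothelial-like, germ-like, endothelial-like and interstitial-like. The connexin genes lie apart, Gja4 at chr4:127311421-127314039 (minus strand), Gja1 at chr10:56377330-56402513 (plus strand) and Gjc1 at chr11:102799579-102819700 (minus strand).

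Cdh5, the cadherin of endothelial junctions, showed the largest difference of the set. It stood at 660 and 567 CPM in endothelial-like cells and was found in 60 of 60 and 30 of 33 of them. In interstitial-like cells it stood at 7.42 and 9.85 CPM, in granulosa-like cells at 1.82 and 2.35 CPM, in germ-like cells at 0.244 and 0.645 CPM, and in mesothelial-like cells at 0 and 1.10 CPM. The log2 fold change against all other named cells was 7.87 ± 0.30 (adjusted p = 4.14e-07). Next in order, interstitial-like cells exceeded granulosa-like cells by 2.16 ± 0.36 on the log2 scale (adjusted p = 0.000443).

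The Cdh5 UMIs of interstitial-like cells were not evenly spread. The cluster led by Pdlim3 and Olfml3 carried the most, 19.9 CPM (25 UMIs) and 30.5 CPM (48 UMIs), while the cluster led by Icam1 and Socs3 carried 2.42 and 3.81 CPM. Relative to endothelial-like cells, Cdh5 in the Pdlim3 cluster stood at 3.01% and 5.37%, where the 6 endothelial markers summed to 0.369% and 0.418%, with 2 and 3 of them at 0. Over all interstitial-like cells Cdh5 stood at 1.12% and 1.74% of its endothelial-like level, and the endothelial markers at 0.468% and 0.374%.

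Cdh11, a cadherin of mesenchymal cells, was enriched in interstitial-like cells, as was Gjc1. Interstitial-like cells carried 272 and 227 CPM (mean 250 ± 31.6, SD, n = 2), mesothelial-like cells 27.2 and 39.3 CPM, endothelial-like cells 1.04 and 12.7 CPM, granulosa-like cells 3.49 and 5.36 CPM and germ-like cells 1.16 and 1.78 CPM. The log2 fold change against all other named cells was 5.58 ± 0.30 (adjusted p = 1.36e-05). Mesothelial-like cells stood 2.85 ± 0.30 below interstitial-like cells on the log2 scale (adjusted p = 9.29e-06), and 2.87 ± 0.60 above endothelial-like cells (adjusted p = 0.00356). The share of interstitial-like cells with a UMI was 82.4% and 68.2% (exact 95% intervals 80.3 to 84.4% and 66.3 to 70.0%), and 42.2% and 36.4% after thinning.

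All interstitial-like clusters carried Cdh11. Its level over these clusters and both libraries ranged from 181 to 316 CPM. In mesothelial-like cells Cdh11 stood at 9.99% and 17.3% of its interstitial-like level, where interstitial markers stood at 3.41% and 4.24%. In granulosa-like and germ-like cells it stood at 0.426% to 2.36%, where the interstitial markers stood at 0.263% to 1.46%. Endothelial-like cells carried it at 0.383% and 5.60%, where those markers stood at 0.329% and 3.41%, so both were higher in replicate 2. Perivascular-like cells carried Cdh11 at 32.6 and 47.3 CPM, from 8 and 12 UMIs, and the interstitial markers there stood at 7.56% and 16.2%. The part of RNA from other cells in these low values was not tested.

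Of 18 other cadherins listed, 10 could be tested in germ-like cells, where 4 were enriched (28.7% of all genes) and 3 were lower. The share of all genes called lower was not counted, so the 3 cannot be set against a background. Cdh20 (log2 fold change 5.54) had 750 UMIs in germ-like cells and 23 in all other named cells. Cdh18 and Cdh9 had 43 UMIs each in germ-like cells and 1 and 3 elsewhere, so that no fold is given. The numbers enriched in the other types were 3 of 9 in granulosa-like (16.8% of all genes), 3 of 8 in mesothelial-like (10.8%), 2 of 9 in interstitial-like (17.2%) and 2 of 9 in endothelial-like cells (9.62%). By log2 fold change, granulosa-like cells were enriched in Cdh22 (4.52), Cdh23 (3.58) and Cdh12 (1.44). Mesothelial-like cells were enriched in Cdh7 (5.79), Cdh12 (1.58) and Cdh24 (1.14). Interstitial-like cells were enriched in Cdh6 (4.93) and Cdh24 (1.64), and endothelial-like cells in Cdh4 (5.36) and Cdh24 (1.45). Several of these folds rest on few UMIs and are imprecise. Cdh22 had 34 UMIs in granulosa-like cells and 4 elsewhere, with 4 on each side in replicate 2. Cdh7 had 25 UMIs in mesothelial-like cells and 6 elsewhere, and Cdh4 had 14 in endothelial-like cells and 30 elsewhere.

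Catenins link cadherins to the cytoskeleton. Of 7 catenins, 3 were enriched in germ-like cells (28.7% of all genes), Ctnnd2 (log2 fold change 5.77), Ctnna3 (3.45) and Jup (1.21), while Ctnnb1 (-1.53), Ctnna1 (-2.26) and Ctnnd1 (-2.63) were lower. Ctnnb1 links cadherins to the actin-binding alpha-catenins and also acts in Wnt signalling. Ctnnd1, which binds cadherins near the membrane, was enriched in granulosa-like (2.00) and mesothelial-like cells (1.29), Ctnna1 in mesothelial-like cells (1.63), and Ctnna2 in interstitial-like cells (1.19). Endothelial-like cells were enriched in Jup (2.31), Ctnna1 (1.77) and Ctnnb1 (1.46). Of the 7 catenins, 1 was thus enriched in granulosa-like (16.8% of all genes), 2 in mesothelial-like (10.8%), 1 in interstitial-like (17.2%) and 3 in endothelial-like cells (9.62%). In the same order of types, 2, 3, 3 and 2 catenins were lower. The shares of all genes given here are for enriched genes only. Counts of lower catenins, scaffolds and nectins thus have no background beside them and are a description. Of 8 scaffolds and nectins, 7 could be tested in each type. Germ-like cells were enriched in 2 (28.7% of all genes), Tjp3 (4.92) and Afdn (2.26), while Nectin1 (-3.70) and Nectin2 (-3.15) were lower. Granulosa-like cells were enriched in 1 (16.8%), Nectin1 (2.08), and 2 were lower. Mesothelial-like cells were enriched in 2 (10.8%), among them Nectin2 (1.88), and 1 was lower. Endothelial-like cells were enriched in 3 (9.62%), among them Nectin2 (1.84) and Tjp1 (1.5), and 0 were lower. In interstitial-like cells 0 were enriched (17.2%) and 2 were lower.

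Between pairs of the 5 main types, 53 of 80 differences of the 8 genes were called, with an absolute log2 fold change over 1 and an adjusted p under 0.05. Germ-like cells differed from granulosa-like cells in 7 of 8 genes (57.1% of all genes), from interstitial-like cells in 7 (56.7%), from mesothelial-like cells in 6 (53.7%) and from endothelial-like cells in 3 (47.2%). Granulosa-like cells differed from mesothelial-like cells in 4 genes, Gja1 and Cdh2 being higher and Cdh3 and Cdh11 lower (15.6% of all genes), from interstitial-like cells in 5 (27% of all genes) and from endothelial-like cells in 5 (21.5%). Mesothelial-like cells differed from interstitial-like cells in 6 genes (22.7%) and from endothelial-like cells in 5 (19%), and interstitial-like from endothelial-like cells in 5 (20%). The members' shares are read against these backgrounds, which are high wherever germ-like cells take part.

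Genes with the most similar profile were sought over 14 sums (7 types in 2 libraries) by Pearson's r of log2(CPM + 1). These correlations share libraries and cell types between points and are given as a description. The profile of Cdh11 was closest to those of Islr (r = 0.967), Nfix (0.966) and Cpz (0.961), and that of Cdh5 to Dnah2os (0.975), Meox1 (0.970) and Tmem255a (0.969). Gjc1 was closest to Rnf14 (0.975), Trpc1 (0.957) and Rdh5 (0.933), and Gja1 to Sppl3 (0.942), Stat5b (0.923) and Sirt3 (0.914). For Gja4 the closest were Sh3glb2 (0.939), Trappc5 (0.920) and Dgkh (0.897). Cdh2 was closest to 2200002D01Rik (0.911), 2200002J24Rik (0.907) and Sox9 (0.906), Cdh3 to 2900011O08Rik (0.942), Dmrtc1a (0.942) and Dlgap3 (0.926), and Cdh1 to 6430531B16Rik (0.959), Gm30159 (0.958) and Snai3 (0.956).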

How the data were processed

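The authors deposited UMI counts per gene and cell, not normalized, of 2 whole-ovary libraries (Chromium 3′ chemistry, for which the labels and the methods name different kit versions), made with Cell Ranger 3.0.2 and GRCm38 per the submitters' processing notes. The libraries held 4094 and 4847 barcodes and 54471790 and 59074480 UMIs. Barcodes under 500 genes or over 10% mitochondrial UMIs were dropped. Scrublet (scanpy 1.11.5) marked 96 and 93 doublets (2.57% and 2.08%), using the threshold of replicate 1 for both libraries. Leiden clustering (resolution 1, 30 components, 15 neighbours, 1993 variable genes) gave 22 clusters. A cluster took the type with the most of its 6 fixed markers detected, at least 3, at 2-fold over the geometric mean of clusters and in at least 10% of cells. Clusters led by markers of another type, and 1 led by haemoglobin genes, stayed out of the comparisons. UMIs were summed per library and type and tested with edgeR 4.0.16 (quasi-likelihood, TMM, filterByExpr, Benjamini-Hochberg adjustment over all genes), each type against all other named cells, and pairs in 1 joint fit over 7 types. DESeq2 1.42.0 was an alternative. SEs were derived from the F statistic. Cells are not replicates, and p-values rest on 2 libraries. Tests were also run on simulated sums in which few genes were changed. Up to 57.1% of all genes were called between types here, so that run gives no error rate for these data. Positions came from GENCODE (GRCm38). Members, lists and the doublet threshold were chosen with earlier results of these data known. Named genes were the members, at most 3 enriched relatives of largest fold per list and type, and the 3 genes most alike per member. Same-numbered sums of different types come from the same library and pups. The main fits held no term for the library, and a replicate block was run as an alternative. The correlation of deviations between types of 1 library ran from 0.016 to 0.302 over 21 pairs of types. Some results on related genes are not reported here.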

Additional observations from a re-analysis of the deposited data

Results flagged for a closer look

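Of the cells outside the comparisons, 2 groups held members above 3 UMIs in both libraries. An unnamed cluster of 28 and 225 cells with all 6 germ markers but a median of 2768.5 and 2463 UMIs per cell carried Gja4 at 63.2 CPM in replicate 1 (10 UMIs) and 124 CPM in replicate 2 (152 UMIs), below the 227 and 207 CPM of germ-like cells. Its summed haemoglobin and other erythroid markers stood at 10786 CPM in replicate 1 and 46.3 CPM in replicate 2, and their part in the Gja4 values was not tested. A cluster of 11 and 120 cells, led by haemoglobin genes and S100a8, carried Cdh11 at 129 CPM (4 UMIs) and 116 CPM (18 UMIs). Interstitial markers in it summed to 3765 and 3723 CPM, against 9507 and 9404 CPM in interstitial-like cells. Erythroid markers in it stood at 64.4 CPM in replicate 1 and 190765 CPM in replicate 2, so its cells of replicate 1 went against the name erythroid.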

How the results depend on the processing

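The enrichment calls held for 7 of the 8 genes, all but Gjc1, under every alternative run that gave a value for them. Thinning to 2000 UMIs left 1 member enriched in germ-like cells, Cdh1 being too rare to test, 1 in interstitial-like cells and 2 in endothelial-like cells, where Gja4 was added. Library size scaling and a test against a 2-fold change each left 1 in interstitial-like cells. Library size scaling moved the median of all genes by -0.03 to -0.21 on the log2 scale. Equal weight for each other type gave 4 in mesothelial-like and 3 in endothelial-like cells, so several members were called in more than 1 type. The share of all genes called was counted for the main comparisons only. Counts of members under any alternative given here therefore have no background beside them and are a description. Without replicate 1 the fold alone placed 2 members in mesothelial-like and 3 in endothelial-like cells, so the counts with a replicate left out ran from 1 to 2 and from 1 to 3. Between types, calls numbered 39 after thinning, 43 against a 2-fold change, 52 with DESeq2 and 63 and 66 by fold alone without replicates 1 and 2. Thinning turned Cdh5 between germ-like and granulosa-like cells from -2.08 to 0.29 (adjusted p = 0.820), with few UMIs in either type. The replicate block left 53 calls between types and changed no call against all others. Adding the low-RNA germ cluster, an alternative chosen after the clusters were seen, also left 53. Shares of cells moved by more than 1 SD under thinning for 8 of 8 members and under gating for 0. Few cells (60 and 33 endothelial-like) and few UMIs (Cdh1 outside germ-like cells, Cdh2 and Cdh3 in endothelial-like cells) limit the precision.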
